A study of Mus musculus with 3 samples.

Results

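The mitotic G2M genes are 53 of the 32285 genes counted in these libraries. They were chosen by symbol, from genes known to be transcribed late in the cell cycle and to act in mitosis, and all 53 symbols were found. RNA and surface proteins were measured together in single cells (CITE-seq) sorted from newborn mouse liver, the organ where blood is made before birth. There was 1 library each from mice with the fusion MLL::ENL and Skida1 deleted (MLL-ENL Skida1-deleted), mice with the fusion alone (MLL-ENL) and Control mice, all on postnatal day 0 and all lineage-negative and KIT-positive. MLL::ENL joins a histone methyltransferase to a transcription elongation factor and drives acute leukemia. The promoter or Cre line behind the fusion and the deletion, the part of Skida1 removed, and the number of mice in each library are unknown from the labels.

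Cells enter mitosis when the kinase Cdk1, bound to a B-type cyclin, is switched on. The chromosomes then condense, kinetochores attach them to spindle microtubules, a checkpoint holds the cell until attachment is complete, and the anaphase-promoting complex lets the sister chromatids part before the cell divides in cytokinesis. Genes for these steps are held silent in resting cells and early in the cycle and are switched on together in G2, through MuvB complexes with DREAM or B-MYB that act at a cell cycle genes homology region (CHR) in their promoters, often beside CCAAT boxes that bind NF-Y. In blood formation most long-term stem cells of the adult rest, those of the fetal liver divide more, and erythroid progenitors divide often.

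The sequences of the members' promoters show this feature. Its letters were not used to choose the genes, but late transcription was, and this feature goes with it. RefSeq promoter windows (GRCm38.p6, 250 bases before to 50 bases after each gene's start) were found for 44 of the 53 members. The stretches printed here run 80 bases before to 20 bases after the start, 5′ to 3′ on the gene's strand. Some hold the CHR letters and some do not. Within this shorter stretch 21 of the 44 matched members held the CHR letters, and 19 held them together with CCAAT. The first 9 stretches were picked from those 19: Cdk1, Ccnb2, Ube2c, Cdc20, Hmmr, Kif11 and Top2a, which were lower in MLL-ENL than in Control stem and progenitor cells, Hmgb2, which differed by less, and Lbr, which was higher. The last 2 come from the 23 members without CHR letters in this stretch: Plk1, as low as Hmmr in MLL-ENL relative to Control, and Mki67, also lower. Both hold the CHR letters elsewhere in the longer window, at position 31 from the start in Plk1 and at −116 and −98 in Mki67. Capitals mark the CHR letters TTTGAA, which read TTCAAA from the other strand, and the CCAAT letters, which read ATTGG from the other strand. They are Cdk1 (chr10:69352893-69352992, minus strand), Ccnb2 (chr9:70421535-70421634, minus strand), Ube2c (chr2:164769849-164769948, plus strand), Cdc20 (chr4:118437324-118437423, minus strand), Hmmr (chr11:40733418-40733517, minus strand), Kif11 (chr19:37376302-37376401, plus strand), Top2a (chr11:99024170-99024269, minus strand), Hmgb2 (chr8:57511763-57511862, plus strand), Lbr (chr1:181842382-181842481, minus strand), Plk1 (chr7:122159355-122159454, plus strand) and Mki67 (chr7:135716360-135716459, minus strand).
Cdk1: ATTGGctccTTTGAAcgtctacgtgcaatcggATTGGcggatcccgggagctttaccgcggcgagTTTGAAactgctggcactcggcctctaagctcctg
Ccnb2: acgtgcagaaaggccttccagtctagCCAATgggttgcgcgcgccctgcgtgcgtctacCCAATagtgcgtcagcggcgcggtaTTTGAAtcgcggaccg
Ube2c: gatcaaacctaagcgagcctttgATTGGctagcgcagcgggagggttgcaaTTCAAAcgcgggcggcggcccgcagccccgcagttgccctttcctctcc
Cdc20: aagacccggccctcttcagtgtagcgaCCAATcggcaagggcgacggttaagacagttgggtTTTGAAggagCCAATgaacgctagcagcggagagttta
Hmmr: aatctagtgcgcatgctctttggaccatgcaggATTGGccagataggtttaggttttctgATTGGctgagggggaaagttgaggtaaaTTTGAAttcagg
Kif11: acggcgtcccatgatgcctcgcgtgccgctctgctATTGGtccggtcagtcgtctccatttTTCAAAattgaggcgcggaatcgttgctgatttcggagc
Top2a: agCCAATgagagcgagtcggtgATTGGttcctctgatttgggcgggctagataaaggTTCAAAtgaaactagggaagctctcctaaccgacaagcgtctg
Hmgb2: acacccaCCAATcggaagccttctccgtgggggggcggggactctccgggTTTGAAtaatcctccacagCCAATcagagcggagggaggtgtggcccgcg
Lbr: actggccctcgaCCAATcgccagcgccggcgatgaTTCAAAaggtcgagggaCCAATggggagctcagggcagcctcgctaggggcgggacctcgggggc
Plk1: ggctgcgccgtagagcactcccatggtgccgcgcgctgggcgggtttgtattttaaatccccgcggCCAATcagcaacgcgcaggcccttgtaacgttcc
Mki67: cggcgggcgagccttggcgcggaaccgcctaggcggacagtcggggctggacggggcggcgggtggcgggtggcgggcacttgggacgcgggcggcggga

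The CHR letters searched were TTTGAA and TTCGAA on both strands (TTCGAA reads the same on each), and CCAAT on both strands; matches that overlap were counted for each motif. The CHR letters stood in the windows of 35 of 44 (79.5%) members, against 21.7% of all 27025 genes with a window and 19.5% of the 41 matched genes of an S phase list. Starting within 50 bases before to 35 bases after the start, they stood in 29 of 44 (65.9%) members and in 5.62% of all genes. In the 25 bases after the start alone they stood in 29.5% of members and 1.68% of all genes. CCAAT was also frequent, in 35 of 44 (79.5%) members against 41.1% of all genes, but the S phase list came closer to the members here, at 65.9%. Both stood in 1 window for 30 of 44 (68.2%) members, 14.6% of S phase genes and 8.61% of all genes. A match is a run of letters and not a binding site, and no match says only that these letters are not in this window.

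**Figure D1:**
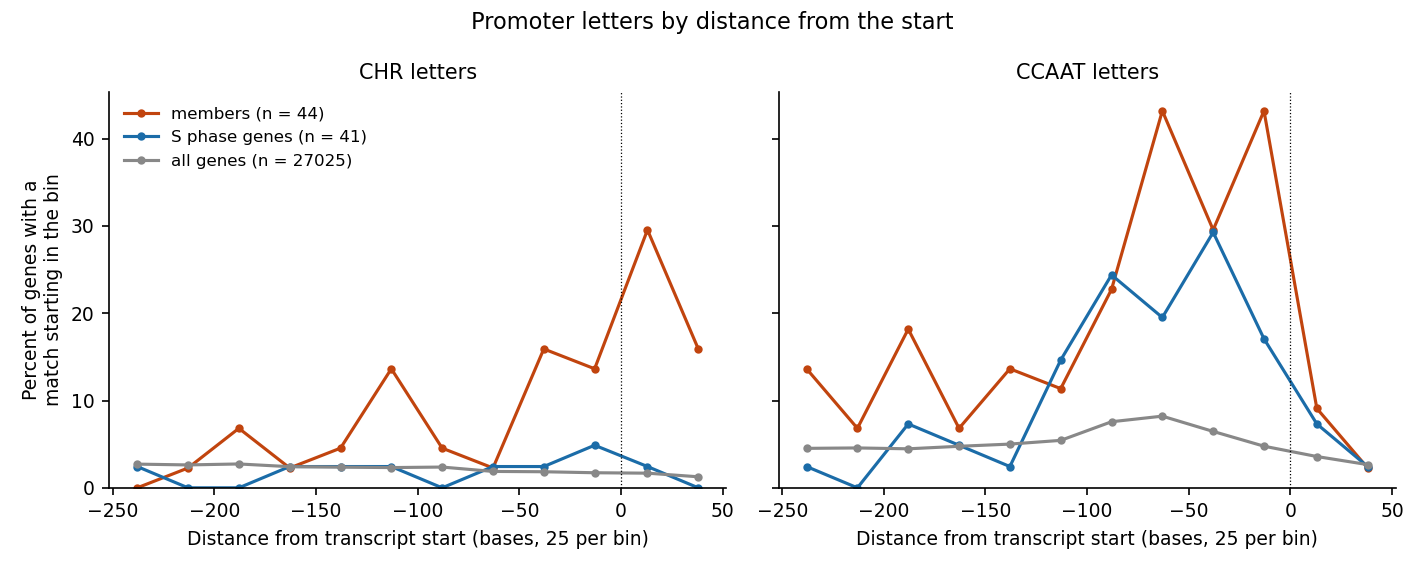
Share of genes whose RefSeq promoter window holds the CHR letters (TTTGAA or TTCGAA) or CCAAT, both strands, by 25-base bin of distance from the gene's start, for the 44 matched members, the 41 matched S phase genes and all 27025 genes with a window. Members stand above all genes for the CHR letters around the start, where 29.5% of members and 1.68% of all genes have a match in the first 25 bases.

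Cells were put into classes by marker genes, after clustering each library on its own without the listed cell cycle genes. The members were thus not used to draw the clusters, though genes off these lists that vary with them were not removed. The classes were hematopoietic stem and progenitor (HSPC)-like, granulocyte-monocyte-like, basophil-mast-like, megakaryocyte-like, early erythroid-like and late erythroid-like, each with at least 100 kept cells in every library. The kept cells numbered 9168 in MLL-ENL Skida1-deleted, 10154 in MLL-ENL and 5510 in Control, with median depths of 17026 UMIs in MLL-ENL Skida1-deleted, 14686 in MLL-ENL and 28501 in Control. From 14 to 21 barcodes were shared by a pair of libraries after filtering. Skida1 itself had 2.34 CPM (UMIs scaled to 1000000 gene UMIs of the class) in MLL-ENL Skida1-deleted HSPC-like cells, 16.7 in MLL-ENL and 1.08 in Control, though a 3′ tag outside the deleted part would not report a deletion. The MLL-ENL Skida1-deleted library also differed in sex from the others: the Y-linked gene Ddx3y had 1337 UMIs in its HSPC-like cells and 0 in MLL-ENL and in Control, so sex and genotype cannot be told apart in that comparison. HSPC-like cells carried the stem and progenitor markers in every library, with none of the 15 at 0, summing to 1924 CPM in MLL-ENL Skida1-deleted, 1725 in MLL-ENL and 2521 in Control. Markers of other cell types moved with the libraries in this class too: the 14 granulocyte markers summed to 822 CPM in MLL-ENL Skida1-deleted, 1739.6 in MLL-ENL and 1864 in Control, and endothelial markers to 285 CPM in MLL-ENL Skida1-deleted, 278 in MLL-ENL and 422 in Control, with at most 1 marker of either list at 0. Their part in the results was not tested. A cluster of 574 MLL-ENL Skida1-deleted cells with too few markers stayed unnamed and in no class.

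In HSPC-like cells, the mitotic genes were lower in MLL-ENL than in Control almost throughout. Summed, the 53 members made up 5475 CPM in MLL-ENL Skida1-deleted, 4676 in MLL-ENL and 7521 in Control. The MLL-ENL sum was 0.622 [0.616–0.627] times that of Control, where brackets give 95% exact intervals that cover counting error only, here and throughout. With 1 library per genotype there was no test and no p-value, and genotype cannot be told apart from mouse or library. Of 53 members measured (a mean of at least 5 CPM over both libraries), 43 were at least 1.5-fold lower in MLL-ENL and 0 at least 1.5-fold higher, on the log2(CPM + 1) scale, where 13.9% of all genes were lower and 6.53% higher. The median log2 ratio was −0.98 for the members and −0.11 for all genes measured, and 51 of 53 members lay below zero.

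The fusion libraries were closer to each other than to Control. The MLL-ENL Skida1-deleted sum was 1.17 [1.16–1.18] times that of MLL-ENL, with a median log2 ratio of 0.22 for the members against 0.03 for all genes. Of 52 members measured, 3 were at least 1.5-fold higher (Nusap1, Tacc3 and Tpx2) and 0 lower, with Gtse1 under the filter, where 2.07% of all genes were higher and 0.820% lower. Both comparisons use the same MLL-ENL library, so they are not independent. Of 52 members measured in all libraries, 48 (92.3%) had both fusion libraries below Control, against 52.0% of all genes. In 42 of the 48 (87.5%) the MLL-ENL Skida1-deleted level lay above that of MLL-ENL, and so between the others, against 43.3% of all genes with both fusion libraries below Control. This second comparison was sensitive to the cells kept: with a stricter filter on cells the ratio was 0.978 and 0 members were at least 1.5-fold higher, and without removing doublets it was 1.02.

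**Figure D2:**
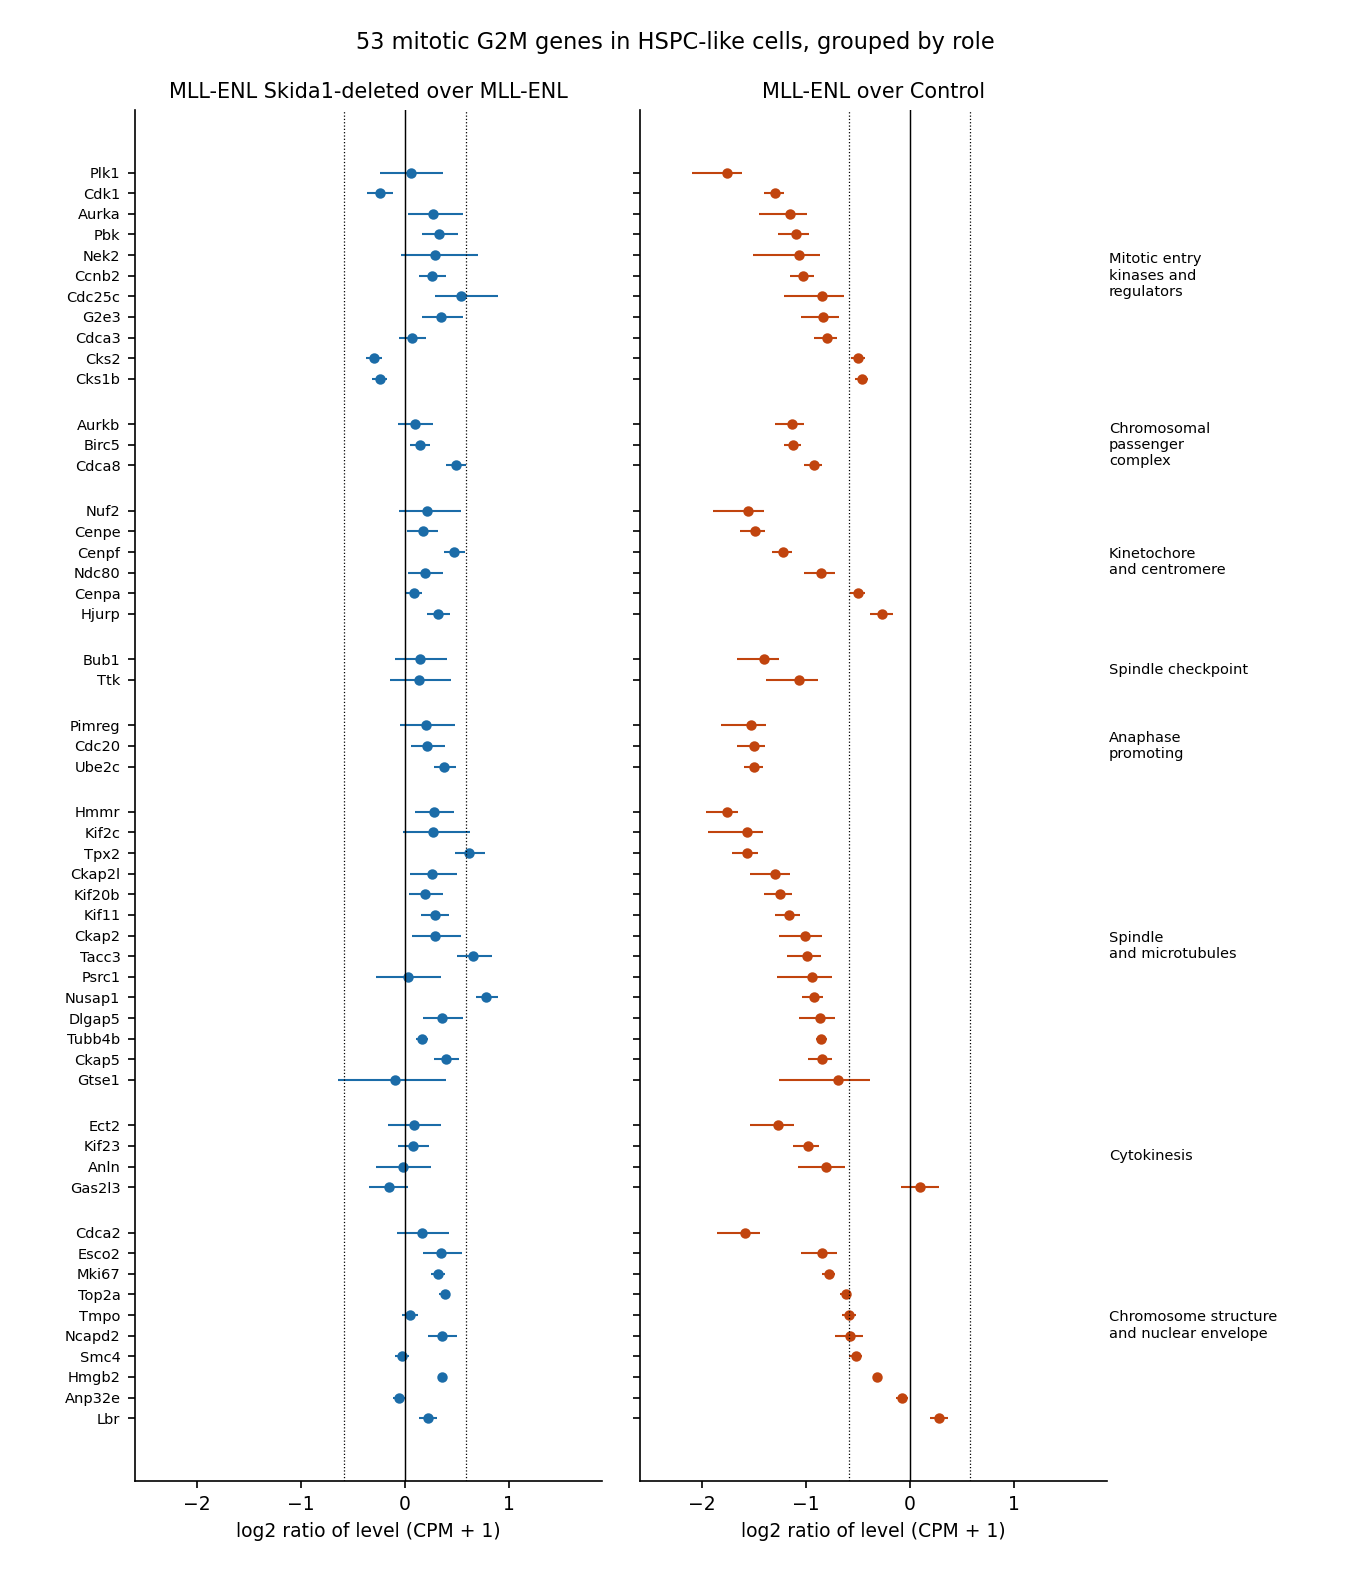
Log2 ratio of (CPM + 1) of each of the 53 mitotic genes in HSPC-like cells, by role, for MLL-ENL Skida1-deleted over MLL-ENL (left) and MLL-ENL over Control (right). Points are the ratios, lines the 95% counting interval of the fold, and dotted lines mark 1.5-fold; in the right panel 43 genes lie past the lower line, and in the left panel 3 lie past the upper one.

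Among the 11 kinases and regulators of mitotic entry, 9 were at least 1.5-fold lower in MLL-ENL than in Control, and their sum was 633 CPM in MLL-ENL and 1089.7 in Control. Plk1, the polo-like kinase that drives entry and centrosome maturation, had 10.9 CPM in MLL-ENL Skida1-deleted, 10.4 in MLL-ENL and 37.6 in Control. Both fusion libraries were far below Control and close to each other, with MLL-ENL at 0.277 [0.234–0.326] times Control. Cdk1, the kinase at the centre of the switch, had 57.9 CPM in MLL-ENL Skida1-deleted, 68.3 in MLL-ENL and 169 in Control, 0.404 [0.378–0.432] times Control in MLL-ENL. Ccnb2, a B-type cyclin that activates Cdk1, had 61.8 CPM in MLL-ENL Skida1-deleted, 51.5 in MLL-ENL and 106 in Control. Its ratio of MLL-ENL to Control was 0.486 [0.449–0.527]. Aurka, the centrosomal Aurora kinase, had 15.3 CPM in MLL-ENL Skida1-deleted, 12.5 in MLL-ENL and 29.0 in Control. The phosphatase Cdc25c, which activates Cdk1, had 13.2 CPM in MLL-ENL Skida1-deleted, 8.77 in MLL-ENL and 16.6 in Control, so MLL-ENL Skida1-deleted was nearer to Control than to MLL-ENL. The kinases Pbk and Nek2, the ubiquitin ligase G2e3 and Cdca3, a trigger of mitotic entry, had log2 ratios of −1.09, −1.07, −0.83 and −0.80. The small Cdk-binding subunits Cks1b and Cks2 were under 1.5-fold: Cks1b had 159.6 CPM in MLL-ENL Skida1-deleted, 189 in MLL-ENL and 261 in Control. Cks2 had 143 CPM in MLL-ENL Skida1-deleted, 176 in MLL-ENL and 249 in Control, and for both genes the MLL-ENL Skida1-deleted library was the lowest.

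The 3 members of the chromosomal passenger complex, which corrects faulty attachments, were all at least 1.5-fold lower in MLL-ENL than in Control. Aurkb, its kinase, had 36.8 CPM in MLL-ENL Skida1-deleted, 34.3 in MLL-ENL and 76.2 in Control. Birc5 (survivin), which brings the complex to the centromere, had 103 CPM in MLL-ENL Skida1-deleted, 93.4 in MLL-ENL and 204 in Control, so for both genes the fusion libraries stood close together and below Control. Cdca8 (borealin), a scaffold of the complex, had 125 CPM in MLL-ENL Skida1-deleted, 88.7 in MLL-ENL and 169 in Control, with MLL-ENL Skida1-deleted 1.41 times MLL-ENL. Of the 6 kinetochore and centromere genes, 4 were lower by that measure. Nuf2 and Ndc80 form the arm of the kinetochore that grips microtubules. Nuf2 had 12.1 CPM in MLL-ENL Skida1-deleted, 10.3 in MLL-ENL and 32.1 in Control, and Ndc80 had 36.7 CPM in MLL-ENL Skida1-deleted, 32.0 in MLL-ENL and 58.5 in Control. The difference from Control was larger for Nuf2, with MLL-ENL at 0.319 [0.269–0.378] times Control, than for Ndc80, at 0.547 [0.493–0.607]. Cenpe, a kinetochore motor, and Cenpf, a large kinetochore protein, had log2 ratios of −1.49 and −1.22. Cenpf had 103 CPM in MLL-ENL Skida1-deleted, 73.9 in MLL-ENL and 173 in Control. Cenpa, the histone H3 variant that marks centromeres, had 165 CPM in MLL-ENL Skida1-deleted, 156 in MLL-ENL and 221 in Control, and its chaperone Hjurp had 89.0 CPM in MLL-ENL Skida1-deleted, 71.1 in MLL-ENL and 86.0 in Control. For these centromere genes the libraries lay closer together, and for Hjurp the MLL-ENL Skida1-deleted level was the highest.

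Genes of the checkpoint and of anaphase were the lowest role groups relative to Control. The checkpoint kinases Bub1 and Ttk (Mps1) summed to 25.9 CPM in MLL-ENL and 65.1 in Control, 0.398 times. Bub1 had 16.6 CPM in MLL-ENL Skida1-deleted, 14.9 in MLL-ENL and 41.0 in Control, and Ttk had 12.2 CPM in MLL-ENL Skida1-deleted, 11.02 in MLL-ENL and 24.1 in Control; in both genes Control stood alone. The anaphase genes summed to 120.4 CPM in MLL-ENL and 346 in Control, 0.348 times. Cdc20, which activates the anaphase-promoting complex, had 38.0 CPM in MLL-ENL Skida1-deleted, 32.6 in MLL-ENL and 94.2 in Control. Ube2c, the ubiquitin-conjugating enzyme of that complex, had 97.5 CPM in MLL-ENL Skida1-deleted, 74.7 in MLL-ENL and 212 in Control. Their ratios of MLL-ENL to Control were close, 0.347 [0.315–0.381] for Cdc20 and 0.352 [0.330–0.374] for Ube2c. Pimreg, a mitotic regulator of the transition to anaphase, had 15.2 CPM in MLL-ENL Skida1-deleted, 13.1 in MLL-ENL and 39.5 in Control.

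All 14 spindle and microtubule genes were at least 1.5-fold lower in MLL-ENL than in Control, and their sum was 633 CPM in MLL-ENL and 1320.0 in Control. Hmmr, a microtubule-binding protein of the spindle poles, had 30.9 CPM in MLL-ENL Skida1-deleted, 25.3 in MLL-ENL and 88.2 in Control. It had the lowest log2 ratio of all members, −1.76, beside Plk1. Kif2c, a kinesin that takes microtubules apart at the centromere, had 10.6 CPM in MLL-ENL Skida1-deleted, 8.61 in MLL-ENL and 27.5 in Control. Tpx2, which activates Aurka on the spindle, had 59.0 CPM in MLL-ENL Skida1-deleted, 38.2 in MLL-ENL and 115 in Control. It was 0.333 [0.305–0.363] times Control in MLL-ENL and 1.54 [1.40–1.71] times MLL-ENL in MLL-ENL Skida1-deleted. Kif11, the motor that pushes the spindle poles apart, had 58.5 CPM in MLL-ENL Skida1-deleted, 47.8 in MLL-ENL and 108 in Control. Tacc3, which stabilizes spindle microtubules together with Ckap5, had 42.5 CPM in MLL-ENL Skida1-deleted, 26.7 in MLL-ENL and 54.0 in Control. Nusap1, which bundles microtubules around chromosomes, had 117 CPM in MLL-ENL Skida1-deleted, 67.3 in MLL-ENL and 129 in Control, the highest member in MLL-ENL Skida1-deleted over MLL-ENL at 1.73 [1.61–1.86] times. Nusap1 and Tacc3 were thus closer to Control in MLL-ENL Skida1-deleted than in MLL-ENL. The cytoskeleton-associated genes Ckap2l and Ckap2, the motor Kif20b, Psrc1, Dlgap5, the microtubule polymerase Ckap5 and Gtse1 had log2 ratios of MLL-ENL to Control from −1.30 in Ckap2l to −0.69 in Gtse1. The tubulin gene Tubb4b had 289.9 CPM in MLL-ENL Skida1-deleted, 258 in MLL-ENL and 467 in Control, the highest level of the group.

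Of the 4 cytokinesis genes, 3 were at least 1.5-fold lower in MLL-ENL than in Control. Ect2, which activates the small GTPase of the contractile ring, Kif23, a motor of the central spindle, and Anln (anillin), a scaffold of the ring, had log2 ratios of −1.27, −0.98 and −0.80. Gas2l3, which links actin and microtubules, had 25.8 CPM in MLL-ENL Skida1-deleted, 28.8 in MLL-ENL and 26.9 in Control, with no library standing apart. Chromosome structure and nuclear envelope genes moved least, with 5 of 10 past 1.5-fold and a sum of 2563 CPM in MLL-ENL and 3390.1 in Control. Cdca2, which recruits a phosphatase to chromatin, had 16.8 CPM in MLL-ENL Skida1-deleted, 14.9 in MLL-ENL and 46.5 in Control and stood with the lowest members. Mki67 (Ki-67), which coats mitotic chromosomes, had 221 CPM in MLL-ENL Skida1-deleted, 177 in MLL-ENL and 304 in Control. Top2a, the topoisomerase that untangles sister chromatids, had 389.5 CPM in MLL-ENL Skida1-deleted, 299 in MLL-ENL and 458 in Control, 0.652 [0.629–0.675] times Control in MLL-ENL. The cohesin acetyltransferase Esco2, the lamina protein gene Tmpo, and the condensin subunits Ncapd2 and Smc4 had log2 ratios of −0.85, −0.59, −0.57 and −0.52. Hmgb2, an abundant chromatin protein, had 1590.0 CPM in MLL-ENL Skida1-deleted, 1245 in MLL-ENL and 1546 in Control, and alone supplied much of the sum: without it the ratio of MLL-ENL to Control was 0.574. Anp32e, a histone chaperone, had 249 CPM in MLL-ENL Skida1-deleted, 259 in MLL-ENL and 273 in Control. Lbr, the lamin B receptor of the inner nuclear membrane, had 149 CPM in MLL-ENL Skida1-deleted, 127 in MLL-ENL and 105 in Control, the one member for which Control was the lowest library, with MLL-ENL at 1.21 [1.14–1.29] times Control.

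The summed level was lower in MLL-ENL than in Control in the other 5 classes too, with a size that differed by lineage. In granulocyte-monocyte-like cells 41 of 53 members were at least 1.5-fold lower in MLL-ENL than in Control (background 15.5%), with a median log2 ratio of −0.90. This class was made of different clusters in each library. Clusters named from granulocyte markers held 841 of its cells in MLL-ENL Skida1-deleted, 64 in MLL-ENL and 253 in Control, and clusters named from monocyte and dendritic cell markers 0 in MLL-ENL Skida1-deleted, 308 in MLL-ENL and 262 in Control. In the granulocyte clusters alone the members summed to 5261 CPM in MLL-ENL Skida1-deleted, 6954 in MLL-ENL and 6658 in Control, so MLL-ENL was not lower there, at 1.04 [0.998–1.09] times Control. The MLL-ENL granulocyte cells were shallow, with a median of 2942.5 UMIs against 23943 in Control. In the monocyte and dendritic clusters the sums were 4683 CPM in MLL-ENL and 8309 in Control, a ratio of 0.564 [0.555–0.572]. In basophil-mast-like cells 44 of 53 members were lower (background 16.9%, median −1.08), and in megakaryocyte-like cells 33 of 53 (background 15.4%, median −0.75). Erythroid cells were closer to Control: 12 of 52 members were lower in early erythroid-like cells (background 10.4%) and 6 of 52 in late erythroid-like cells (background 9.91%), a share near the background in the late class. Over the processing alternatives the count ran from 6 to 21 in early and from 4 to 16 in late erythroid-like cells. Pimreg lay under the filter on low values in both erythroid classes. The medians of all genes measured lay between −0.19 and −0.05 in these classes. The difference between classes was not tested, having 1 library for each. In the megakaryocyte-like class it depended on the clustering: with cell cycle genes kept in, the sum in MLL-ENL was 1.09 times Control, in place of 0.679, and 4 members were lower in place of 33.

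Among these 6 classes the summed level followed lineage in all libraries, lowest in stem, granulocyte-monocyte and basophil-mast cells and highest in late erythroid cells. It was 5261 CPM in MLL-ENL Skida1-deleted, 4791 in MLL-ENL and 7501 in Control in granulocyte-monocyte-like cells and 4938 CPM in MLL-ENL Skida1-deleted, 4591 in MLL-ENL and 7809 in Control in basophil-mast-like cells. Megakaryocyte-like cells had 6674 CPM in MLL-ENL Skida1-deleted, 6836 in MLL-ENL and 10062 in Control. Early erythroid-like cells had 7643 CPM in MLL-ENL Skida1-deleted, 7423 in MLL-ENL and 8775 in Control, and late erythroid-like cells 9933 CPM in MLL-ENL Skida1-deleted, 10527 in MLL-ENL and 12251 in Control. Control was the highest library in each of the 6. Late erythroid-like cells had 1.81 times the level of HSPC-like cells in MLL-ENL Skida1-deleted, 2.25 times in MLL-ENL and 1.63 times in Control. As a difference in CPM the span was 4458 in MLL-ENL Skida1-deleted, 5851 in MLL-ENL and 4729.7 in Control, so in MLL-ENL Skida1-deleted it was wider than in Control only as a ratio.

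**Figure D3:**
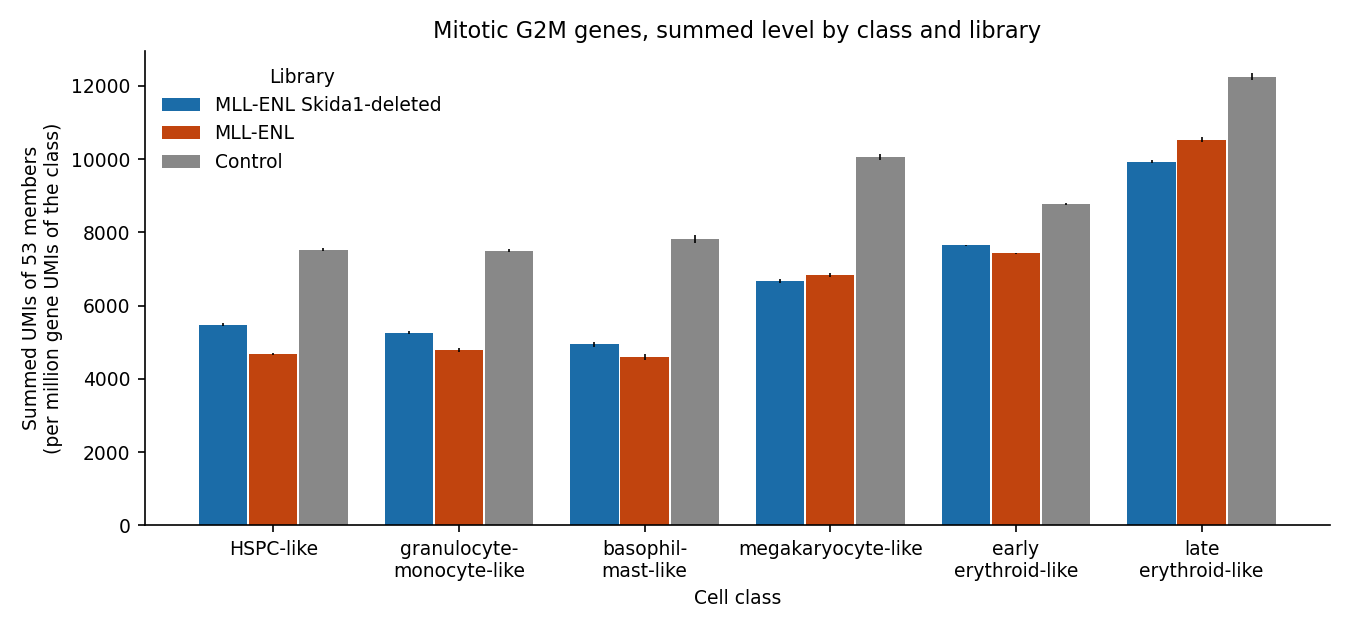
Summed level of the 53 mitotic genes in CPM for the 6 classes, with bars for MLL-ENL Skida1-deleted, MLL-ENL and Control and 95% counting intervals. Control is the highest bar in every class, and the ratio of MLL-ENL to Control is nearest to 1 in the erythroid classes, at 0.846 in early and 0.859 in late cells.

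Across the classes 38 of 53 members had a log2 ratio of MLL-ENL to Control below zero in all 6, and Lbr alone was above zero in all 6. Of genes measured in every class, 38 of 52 members (73.1%) and 34.3% of all genes lay below zero in all 6. Plk1, Ube2c or both were among the 3 lowest members in every class. Plk1 had 13.8 CPM in MLL-ENL Skida1-deleted, 11.8 in MLL-ENL and 50.9 in Control in granulocyte-monocyte-like cells. It had 21.7 CPM in MLL-ENL Skida1-deleted, 19.99 in MLL-ENL and 62.8 in Control in megakaryocyte-like cells, and 41.9 CPM in MLL-ENL Skida1-deleted, 34.1 in MLL-ENL and 65.6 in Control in early erythroid-like cells, so Control stood above both fusion libraries each time. Ube2c had 90.3 CPM in MLL-ENL Skida1-deleted, 59.8 in MLL-ENL and 221 in Control in granulocyte-monocyte-like cells and 224 CPM in MLL-ENL Skida1-deleted, 246 in MLL-ENL and 429 in Control in late erythroid-like cells. In granulocyte-monocyte-like cells Hmmr came next, at a log2 ratio of −1.67, and Lbr (0.04), Gas2l3 (−0.01) and Hjurp (−0.10) were the highest. In basophil-mast-like cells Bub1 was lowest, with 12.9 CPM in MLL-ENL Skida1-deleted, 8.91 in MLL-ENL and 38.7 in Control, followed by Plk1 (−1.88) and Kif2c (−1.71), while Lbr (0.16), Anp32e (0.12) and Hmgb2 (−0.35) were highest. In megakaryocyte-like cells Ube2c (−1.49) and Cenpe (−1.42) followed Plk1, and Lbr (0.09), Anp32e (−0.03) and Hmgb2 (−0.08) lay near zero.

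In early erythroid-like cells Lbr was again the highest member, and the next highest differed from those of the classes above. Ube2c (−0.95), Plk1 (−0.92) and Psrc1 (−0.84) were lowest. Lbr had 107 CPM in MLL-ENL Skida1-deleted, 103 in MLL-ENL and 76.5 in Control, a log2 ratio of 0.42, followed by Esco2 (0.24) and Nusap1 (0.21). In late erythroid-like cells Ccnb2 was lowest, with 115 CPM in MLL-ENL Skida1-deleted, 124 in MLL-ENL and 226 in Control, then Ube2c (−0.80) and Kif2c (−0.70). Gtse1, which holds p53 in check during G2, was the only member at least 1.5-fold higher there, with 11.6 CPM in MLL-ENL Skida1-deleted, 18.8 in MLL-ENL and 10.3 in Control; 8.76% of all genes were. Gas2l3 (0.45) and Anln (0.34) came next.

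Between the fusion libraries, few members passed 1.5-fold in any class, and most shares lay near the background. In granulocyte-monocyte-like cells, most of them in granulocyte clusters in MLL-ENL Skida1-deleted and in monocyte and dendritic clusters in MLL-ENL, 3 of 52 were higher in MLL-ENL Skida1-deleted than in MLL-ENL (Nusap1 0.71, Pimreg 0.60 and Ube2c 0.59 on the log2 scale), against 3.20% of all genes. In basophil-mast-like cells 2 of 52 were higher, against 3.92%: Cdc25c, at 12.6 CPM in MLL-ENL Skida1-deleted, 5.22 in MLL-ENL and 17.9 in Control, and Psrc1 (log2 ratio 0.70). None was higher in megakaryocyte-like cells (1.85% of all genes) or early erythroid-like cells (0.804%), and Gtse1 alone was lower in late erythroid-like cells (1.25% of all genes were). These counts moved with the processing, from 0 to 11 in granulocyte-monocyte-like and from 0 to 25 in basophil-mast-like cells. Keeping 1 side in all 6 classes was not more frequent among the members than among all genes: of genes measured in every class, 11 of 51 members (21.6%) and 30.4% of all genes did. Anp32e, Cdk1, Cks1b, Cks2 and Gtse1 had log2 ratios of MLL-ENL Skida1-deleted to MLL-ENL below zero in every class (Gtse1 under the filter in 3 of them), and Ckap2, Hmgb2, Lbr, Ncapd2, Nusap1, Tacc3 and Top2a above zero. For Cdk1 the ratios were 0.847 in HSPC-like, 0.897 in granulocyte-monocyte-like, 0.817 in basophil-mast-like, 0.741 in megakaryocyte-like, 0.828 in early erythroid-like and 0.781 in late erythroid-like cells. Its intervals included 1 in the granulocyte-monocyte-like and basophil-mast-like classes. For Nusap1 the ratio was highest in HSPC-like cells, 1.73, followed by 1.65 in granulocyte-monocyte-like and 1.27 in basophil-mast-like cells, and lowest in megakaryocyte-like cells, 1.07. The classes of a library share its mice and handling, so these are not repeats.

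**Figure D4:**
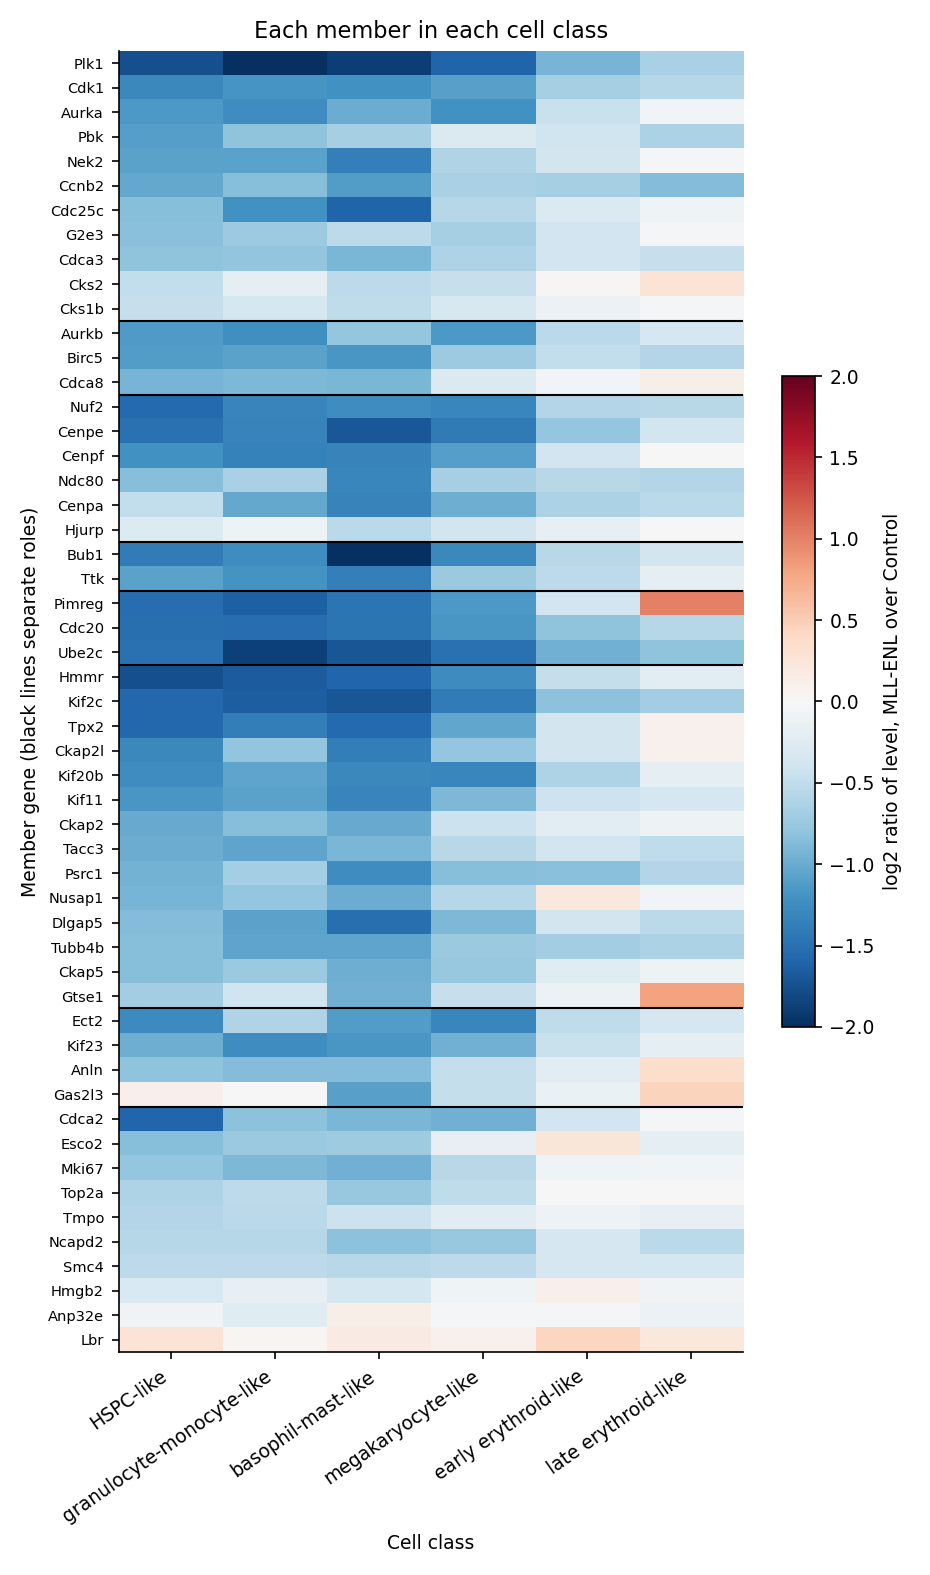
Log2 ratio of (CPM + 1) of each mitotic gene in each of the 6 classes, for MLL-ENL over Control. The MLL-ENL over Control values are mostly negative in HSPC-like, granulocyte-monocyte-like and basophil-mast-like cells and nearer to zero in erythroid cells, and Lbr is above zero in all 6 classes.

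Within the HSPC-like class the difference was larger in the cluster richest in stem markers. Each library had a cluster with the highest level of the stem and progenitor list (1029 cells in MLL-ENL Skida1-deleted, 683 in MLL-ENL and 700 in Control), called stem-led here, and a second HSPC-like cluster (778 cells in MLL-ENL Skida1-deleted, 959 in MLL-ENL and 339 in Control); this split was made after the data were seen, and the clusters were drawn in each library on its own. Median depth in the stem-led cluster was 6274 UMIs in MLL-ENL Skida1-deleted, 7068 in MLL-ENL and 12610 in Control. In the stem-led cluster the members summed to 3804 CPM in MLL-ENL Skida1-deleted, 3412 in MLL-ENL and 7524 in Control. The ratio of MLL-ENL to Control was 0.454 [0.446–0.461], and 47 of 52 members were at least 1.5-fold lower (background 15.9%). Hmmr had 16.9 CPM in MLL-ENL Skida1-deleted, 14.1 in MLL-ENL and 94.8 in Control there, 0.149 [0.116–0.187] times Control in MLL-ENL. Nuf2 had 5.48 CPM in MLL-ENL Skida1-deleted, 4.16 in MLL-ENL and 31.4 in Control, and Ckap2l had a log2 ratio of −2.56. Lbr (0.25), Cenpa (−0.26) and Anp32e (−0.26) were the highest. In the second cluster the ratio was 0.695 [0.687–0.703] with 30 of 53 members lower (background 14.4%), Plk1 lowest at −1.58 and Gas2l3 highest at 0.44. The second cluster also held the larger gap between the fusion libraries, with a summed ratio of MLL-ENL Skida1-deleted to MLL-ENL of 1.31 [1.29–1.32] against 1.11 [1.09–1.14] in the stem-led cluster. There 8 of 53 members were at least 1.5-fold higher, against 2.32% of all genes. Nusap1 had 162 CPM in MLL-ENL Skida1-deleted, 79.6 in MLL-ENL and 103 in Control, 2.04 [1.88–2.21] times MLL-ENL, and Tacc3 and Cdc25c followed at log2 ratios of 0.86 and 0.77. Control cells were deeper than MLL-ENL cells in the class. With every cell thinned to 3000 UMIs, the summed ratio of MLL-ENL to Control over the whole class was 0.588, further from 1 than without thinning. Thinning also gives each cell the same weight, as did the unthinned mean over cells, at 0.583. The part of depth in the ratio was not tested.

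A lower sum can come from fewer cells carrying mitotic RNA or from less of it in each, and per-cell counts gave values for both. Each cell was thinned to 3000 gene UMIs, and cells with at least 20 member UMIs were counted. Of HSPC-like cells, 23.6% [21.7–25.7] reached that in MLL-ENL Skida1-deleted, 19.2% [17.3–21.2] in MLL-ENL and 35.6% [32.7–38.6] in Control. Unthinned, at the same rate per 3000 UMIs, the shares were 23.4% in MLL-ENL Skida1-deleted, 19.3% in MLL-ENL and 37.2% in Control. The cells above the line also held less in MLL-ENL: they averaged 33.4 member UMIs in MLL-ENL Skida1-deleted, 30.1 in MLL-ENL and 39.5 in Control. Cells below it averaged 6.73 in MLL-ENL Skida1-deleted, 6.68 in MLL-ENL and 7.66 in Control. The line is a point on a range and not a phase: 66 of 1785 MLL-ENL Skida1-deleted cells, 99 of 1641 MLL-ENL cells and 74 of 1036 Control cells lay between 18 and 22 UMIs, and 22 shallower cells in MLL-ENL Skida1-deleted, 1 in MLL-ENL and 3 in Control were left out. In the stem-led cluster the share was 10.99% [9.14–13.1] in MLL-ENL Skida1-deleted, 9.09% [7.04–11.5] in MLL-ENL and 33.1% [29.6–36.7] in Control. In the second cluster it was 40.5% [37.0–44.0] in MLL-ENL Skida1-deleted, 26.4% [23.6–29.3] in MLL-ENL and 40.8% [35.5–46.3] in Control, so there MLL-ENL stood below both other libraries.

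The shares differed in the other classes too. They were 26.0% in MLL-ENL Skida1-deleted, 24.6% in MLL-ENL and 48.9% in Control granulocyte-monocyte-like cells. In basophil-mast-like cells they were 21.8% in MLL-ENL Skida1-deleted, 20.4% in MLL-ENL and 39.3% in Control, and in megakaryocyte-like cells 36.3% in MLL-ENL Skida1-deleted, 37.1% in MLL-ENL and 51.8% in Control. Early erythroid-like cells stood at 58.4% in MLL-ENL Skida1-deleted, 57.8% in MLL-ENL and 69.9% in Control. Thinning left out 234 shallower cells of this class in MLL-ENL Skida1-deleted, 790 in MLL-ENL and 12 in Control. Most late erythroid-like cells passed, 89.0% in MLL-ENL Skida1-deleted, 90.8% in MLL-ENL and 97.8% in Control.

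**Figure D5:**
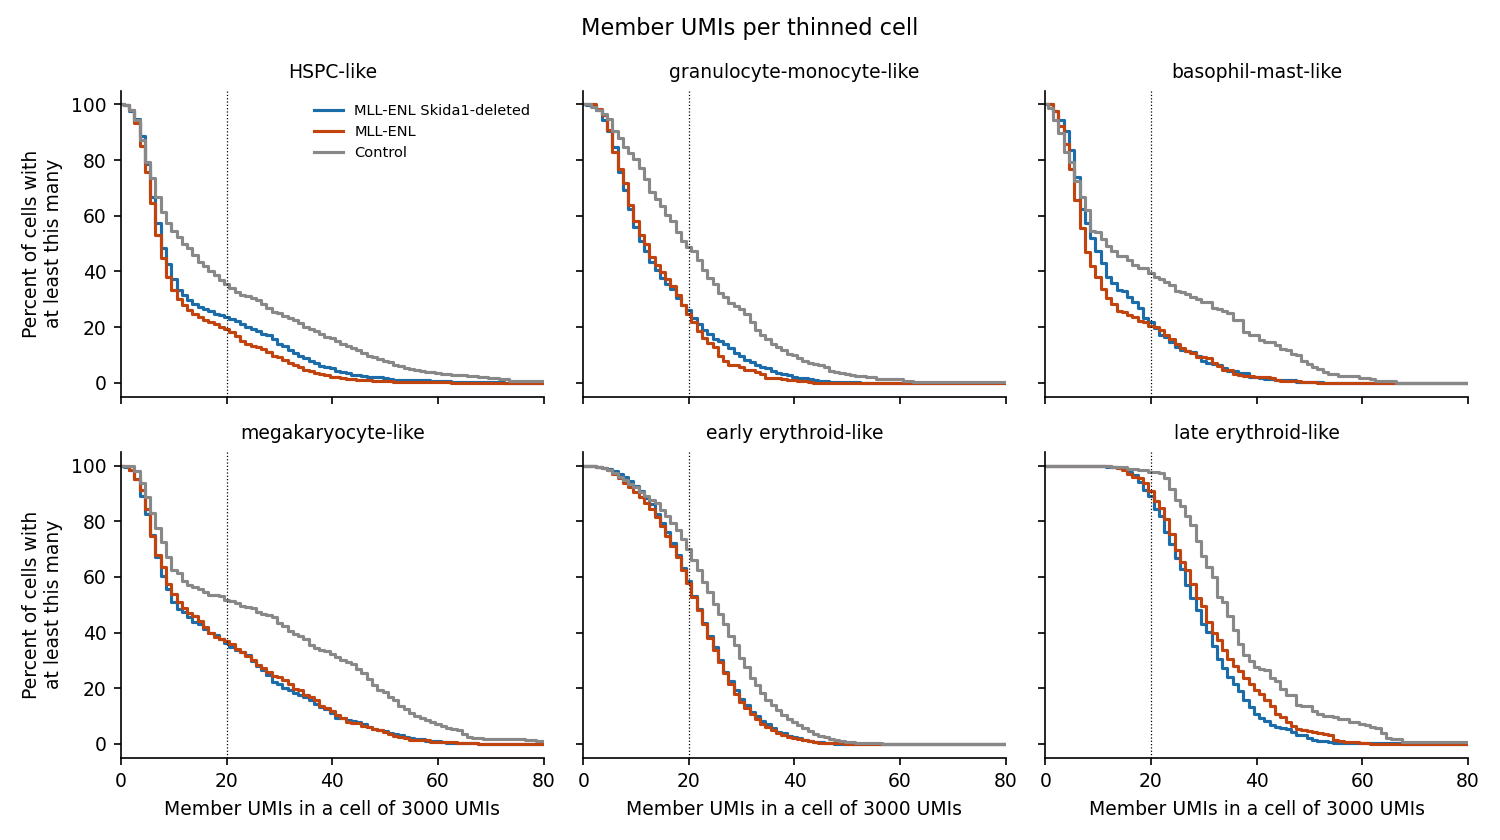
Percent of cells with at least a given number of mitotic gene UMIs out of 3000, for each class and for MLL-ENL Skida1-deleted, MLL-ENL and Control. The dotted line marks 20 UMIs, where the HSPC-like curves stand at 23.6% in MLL-ENL Skida1-deleted, 19.2% in MLL-ENL and 35.6% in Control.

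The members differ in how far their RNA lies in cells high in the other members, and that order ran with the size of the difference. For each gene the level in the 10% of cells highest in the other members was divided by that in the lowest 50%, over the named classes of each library. The classes were pooled for this ratio, so differences between lineages enter it as well. Members are ranked by the median of this ratio over the libraries, and single libraries differ: in MLL-ENL Cenpf stood above Pimreg, and Nusap1 lower down. By the median Pimreg was the most restricted, at 13.5 in MLL-ENL Skida1-deleted, 7.50 in MLL-ENL and 11.8 in Control, followed by Nusap1, at 10.5 in MLL-ENL Skida1-deleted, 5.17 in MLL-ENL and 11.2 in Control. Cenpf had ratios of 11.9 in MLL-ENL Skida1-deleted, 8.18 in MLL-ENL and 10.2 in Control, and Ube2c 10.9 in MLL-ENL Skida1-deleted, 6.01 in MLL-ENL and 9.03 in Control. Lbr (1.26 in MLL-ENL Skida1-deleted, 1.46 in MLL-ENL and 1.39 in Control) and Anp32e (1.70 in MLL-ENL Skida1-deleted, 1.69 in MLL-ENL and 1.52 in Control) hardly varied between such cells. The 10 most restricted members (median ratios 6.13 to 11.8) had a median log2 ratio of MLL-ENL to Control in HSPC-like cells of −1.36, and all 10 were at least 1.5-fold lower. The 33 in the middle had a median of −0.99, with 30 lower. The 10 least restricted (ratios 1.39 to 2.81) were Smc4, Cks2, Pbk, Tubb4b, Hmgb2, Hjurp, Cks1b, Tmpo, Anp32e and Lbr. They had a median of −0.48, with 3 lower. Over the 53 genes the Spearman coefficient between restriction and that log2 ratio was −0.67, a description only, since both values come from the same cells. The CHR letters did not follow the size: members with them had a median log2 ratio of −0.94 (35 genes) and matched members without them −0.99 (9 genes).

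Other genes of the cell cycle gave a scale for these values. On a list of 75 further mitotic genes, 48 of 73 measured were at least 1.5-fold lower in MLL-ENL than in Control HSPC-like cells (background 13.9%). Their median log2 ratio was −0.69. The lowest were Kif14 and Kif22, kinesins, Ncapg, a condensin subunit, and Cdkn3, a phosphatase of Cdk kinases. Kif14 had 8.09 CPM in MLL-ENL Skida1-deleted, 5.48 in MLL-ENL and 16.5 in Control, and Kif22 had 24.8 CPM in MLL-ENL Skida1-deleted, 18.3 in MLL-ENL and 50.8 in Control. Ncapg and Cdkn3 had log2 ratios of −1.42 and −1.41. The highest were the MuvB subunits Lin54 (0.15) and Lin9 (0.14), the cohesin subunit Rad21 (0.12) and the heterochromatin protein Cbx5 (0.01), none of which passed 1.5-fold. Between the fusion libraries none of that list was at least 1.5-fold higher in MLL-ENL Skida1-deleted (2.07% of all genes were). The cohesin gene Stag1, at 104 CPM in MLL-ENL Skida1-deleted, 68.8 in MLL-ENL and 71.3 in Control, and the condensin gene Ncaph (0.58) came nearest, with Espl1 (0.50) and Sgo1 (0.49) next and Cep55 (−0.30), Depdc1a (−0.22), Wee1 (−0.22) and Pkmyt1 (−0.21) at the low end. S phase genes differed less than the members in HSPC-like cells: 20 of 54 were lower in MLL-ENL HSPC-like cells (background 13.9%). Their median was −0.47, and the summed ratio was 0.768. In megakaryocyte-like cells the S phase sum in MLL-ENL was 1.02 times Control while the members' was 0.679. In late erythroid-like cells the S phase sum was the lower of the pair, 0.803 times Control against 0.859 for the members. In the stem-led cluster 43 of 54 S phase genes were lower as well (background 15.9%).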

How the data were processed

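RNA and 10 antibody tags were measured in 3 libraries of sorted mouse liver cells, 1 per genotype. The deposited files hold raw UMI counts per gene and cell barcode, with no normalization. They came from Cell Ranger 6.1.2 per the file headers and 6.0.1 per the submitters' processing notes, which also name mm10. No source used here says how reads shared by near-identical genes were counted. MLL-ENL Skida1-deleted held 10543 barcodes with 207395090 gene UMIs, MLL-ENL 11910 with 198773992 and Control 6091 with 180656900.

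Cells with at least 1000 UMIs, 500 genes and under 10% mitochondrial UMIs were kept, and the cells with the highest Scrublet scores (scanpy 1.11.5) were removed at the expected doublet rate of 0.8% per 1000 cells. That removed 794 cells from MLL-ENL Skida1-deleted, 994 from MLL-ENL and 267 from Control. Each library was clustered on its own (2000 variable genes without cell cycle genes, 30 principal components, 15 neighbours, leidenalg 0.10.2 at resolution 1.0), because clustering the libraries together left 25 Control cells in the HSPC-like class. A cluster took the marker list with the most genes among its top 50, and at least 3 were needed. The lymphoid list was merged into the HSPC-like class, and granulocyte and monocyte-dendritic lists into one class. These naming choices were made after the clusters were seen.

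UMI counts of each gene were summed per library and class and divided by all gene UMIs of the class (CPM). Folds have exact conditional binomial intervals, levels exact Poisson and shares exact binomial (Clopper-Pearson) ones, from scipy 1.17.1. Log2 ratios use a pseudocount of 1 CPM and genes with a mean of at least 5 CPM in the libraries compared. With 1 library per genotype no test was run. The fold intervals and the 1.5-fold rule were run only on simulated Poisson counts, which hold no variation between cells, mice or libraries. Per-cell values come from cells thinned to 3000 UMIs. Promoter windows are those of RefSeq, GRCm38.p6, the assembly that mm10 names. Members described in full in HSPC-like cells are the 6 highest and 6 lowest log2 ratios of each comparison plus 16 chosen by name; other classes name the 3 highest and lowest. The members and lists were chosen with earlier results of these data known.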

Additional observations from a re-analysis of the deposited data

How the results depend on the processing

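The alternatives, 17 listed and 7 added after the data were seen, covered filters, doublets, clustering, class naming, scaling and the low-value filter. No direction of the summed ratio of MLL-ENL to Control reversed in HSPC-like cells, and the count of members at least 1.5-fold lower ran from 30 to 47. That ratio, 0.622 as reported, was 0.723 with a stricter filter on cells (375 Control cells left in the class), 0.708 with no doublet removal, 0.685 with Scrublet's own doublet calls, 0.687 with cell cycle genes kept in the clustering and 0.587 with S and G2M sums regressed out. It was 0.609 at Leiden resolution 2.0, 0.633 with classes from a marker score, 0.637 with classes of the nearest Control cells and 0.557 in the 10% of cells highest in the Sca-1 tag. It was 0.588 with thinned cells, 0.666 without globin, mitochondrial and ribosomal protein genes, 0.666 with median-of-ratios size factors, 0.583 as a mean over cells, 0.574 without Hmgb2, 0.454 in the stem-led cluster and 0.695 in the other.

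The ratio of MLL-ENL Skida1-deleted to MLL-ENL, 1.17 as reported, was 0.978 with the stricter filter, 1.02 with no doublet removal, 1.08 with Scrublet's calls, 1.11 with cell cycle genes kept in and 1.10 with sums regressed out. It was 1.198 at resolution 2.0, 1.16 with nearest Control cells, 1.14 with granulocyte-monocyte-like cells added, 1.14 in Sca-1-high cells, 1.15 with size factors, 1.16 as a mean over cells, 1.13 without Hmgb2, 1.11 in the stem-led cluster and 1.31 in the other. The count of members at least 1.5-fold higher, 3 as reported, was 0 with the stricter filter, with Scrublet's calls and with cell cycle genes kept in, 1 with sums regressed out, 5 at resolution 0.5 and in Sca-1-high cells, and 8 in the other cluster. The cause was not tested. In granulocyte-monocyte-like cells the ratio of MLL-ENL to Control, 0.639 as reported, was 1.04 in the granulocyte clusters alone (64 MLL-ENL cells) and 0.564 in the monocyte and dendritic clusters alone. That of MLL-ENL Skida1-deleted to MLL-ENL, 1.098 as reported, was 0.757 in the granulocyte clusters. Resolution 0.5 gave no late erythroid-like value, and clustering the libraries together gave no HSPC-like value. No paired analysis was possible because each genotype had 1 library. Counts limit low members such as Gtse1, and counting intervals hold no variation between mice.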

Other observations

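Shares of the surface protein tags differed between HSPC-like cells high and low in the mitotic genes. Cells with at least 20 member UMIs out of 3000 were set beside cells with fewer than 10, by the median share of each cell's tag counts. CD48, a protein of progenitors that long-term stem cells lack, took 73.8% against 67.7% in MLL-ENL Skida1-deleted, 77.0% against 69.1% in MLL-ENL and 70.9% against 65.4% in Control. Sca-1, high on stem cells, took 7.10% against 13.1% in MLL-ENL Skida1-deleted, 4.10% against 11.5% in MLL-ENL and 11.98% against 17.0% in Control. CD201 (EPCR), another stem cell protein, took 0.102% against 0.183% in MLL-ENL Skida1-deleted, 0.101% against 0.199% in MLL-ENL and 0.235% against 0.383% in Control, and CD150 0.255% against 0.362% in MLL-ENL Skida1-deleted, 0.247% against 0.375% in MLL-ENL and 0.292% against 0.413% in Control. Over the whole class, cells high in the members had a larger CD48 share and smaller Sca-1, CD201 and CD150 shares in every library. Within the stem-led and the second cluster the shares of CD201 and CD150 kept that direction in every library. CD48 and Sca-1 did not in the second cluster of MLL-ENL Skida1-deleted, where CD48 took 76.5% against 76.6% and Sca-1 5.05% against 4.02%. In the stem-led cluster of that library Sca-1 took 19.2% against 19.3%. The direction was not particular to stem cell proteins. Shares of CD127 and CD41 were also lower in cells high in the members, over the class and in each cluster of every library. Shares are relative, and CD48 took most tag counts. Cells high in the members were also deeper, with a median of 12764 against 6544 UMIs in MLL-ENL Skida1-deleted, 16390 against 8011 in MLL-ENL and 19053 against 10873 in Control, and the part of depth in the tag shares was not tested.

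B-lineage-like cells, of which there were 98 in MLL-ENL Skida1-deleted, 90 in MLL-ENL and 43 in Control, had the highest summed level of the members of any class: 12211 CPM in MLL-ENL Skida1-deleted, 15048 in MLL-ENL and 17762 in Control. With under 100 cells in each library they were not compared further.

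Over the 18 combinations of class and library, the genes outside both mitotic lists whose log2 level was most like the members' mean, by Pearson coefficient among 9082 genes, were Aspm (0.97), Anapc11 (0.97), Cdc7 (0.96), Cenpl (0.95), Gen1 (0.95), Cip2a (0.95), Elp4 (0.93) and Oip5 (0.93). Among the members themselves Kif11 (0.99), Cenpe (0.98) and Nuf2 (0.98) were most like that mean, and Lbr (−0.50) and Pimreg (−0.17) least. The combinations share libraries and depth, so these values only describe likeness.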
